A study of Mus musculus with 12 samples.

Results

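RNA from the spleens of mice that had received OVA was compared between 28 and 14 days, using the 8 OVA arrays of a series of 12. The arrays were chosen by their titles: 4 carry RNA of OVA spleens taken on day 14 and 4 of OVA spleens taken on day 28. All mice were female BALB/c, 6 weeks old per the labels. OVA is ovalbumin, a protein of hen's egg that is widely used to sensitise mice, and it went into the peritoneum on days 1, 3 and 5 at 2 mg/kg a time. The other 4 arrays hold spleens of mice given normal saline instead, 2 for each day, and serve here as the background of the day difference. The labels call the OVA animals allergic. They name no adjuvant and no airway challenge, and no measure of allergy was analysed here. They number the samples within a group without saying whether each number is a separate mouse, so the p-values measure the spread between these samples, which may be technical.

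The spleen filters blood and holds the B cell follicles, T cell zones and myeloid cells in which an antigen injected into the body cavity is met. After such an exposure, lymphocytes are activated and divide, and in the following weeks most effector cells are lost while memory cells remain. The array used here reads few textbook marker genes by name. It carries catalogue probes without a gene name in the files, long non-coding RNAs (transcripts with no long reading frame) and RIKEN clones, which are full-length mouse cDNAs collected before the genome was annotated. Many of those clones are alternative, unspliced or antisense products of protein-coding genes, so a clone named for a gene need not follow that gene's mRNA. None of the 43 lymphocyte, myeloid and erythroid markers listed for a check of the tissue had a named probe, so the label could not be set against them.

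The day 28 arrays were brighter. The 75th percentile of the signal lay between 484 and 549 units on the 4 OVA arrays of day 28, between 267 and 288 on those of day 14 and between 316 and 368 on the 4 saline arrays. Each OVA group lay on a slide of its own and the saline arrays on the other, so slide and day cannot be told apart in the OVA comparison. Levels below are therefore log2 signals minus the 75th percentile of their array, and each change was also tested against the E1A spike-ins, synthetic RNAs added in fixed amounts to the labelling reaction. On OVA day 14 replicate 2 only 57.5% of spots were well above background, against 75.3 to 78.4% on the day 28 arrays.

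Before scaling, all 8 spike-ins that were well above background were brighter on day 28, by 0.41 to 1.06 on the log2 scale, and none overlapped between the groups (exact permutation test, two-sided, adjusted p = 0.0286 each; 0.0286 is the smallest p that 4 against 4 allows). After percentile scaling, 3 were higher and 5 lower on day 28, from -0.45 to 0.19, and 2 of the 8 did not overlap. Their mean was 2.58 ± 0.12 (SD, n = 4) on day 14 and 2.46 ± 0.06 on day 28, a difference of -0.12 (exact permutation test, two-sided, p = 0.171). No scaled spike-in passed after adjustment (lowest adjusted p = 0.143). Dividing by the spike-ins instead of the percentile raises every feature's day difference by 0.12 on the log2 scale and moves the median over all features from -0.06 to 0.05.

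**Figure D1:**
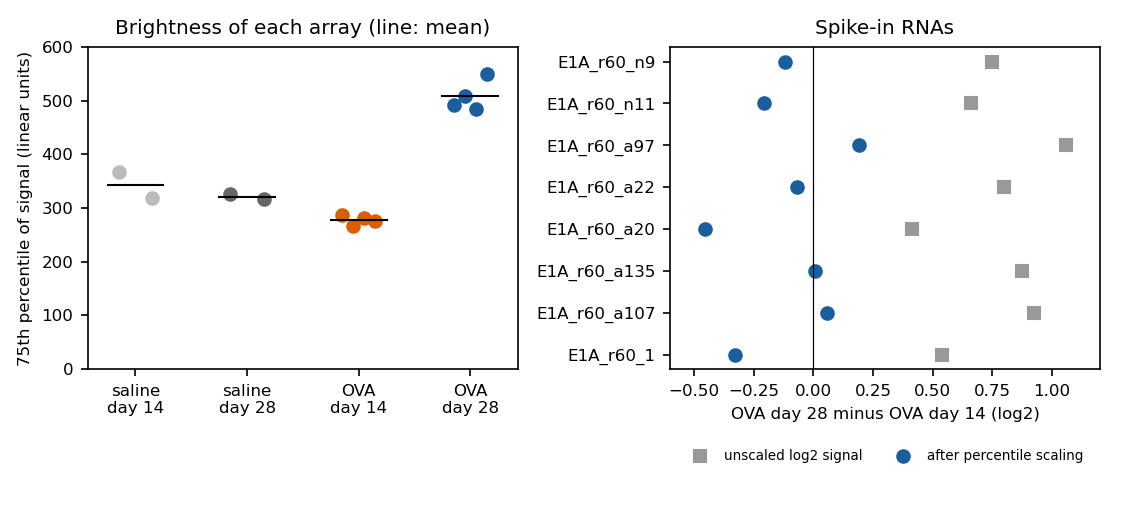
Left, the 75th percentile of the signal on each of the 12 arrays (points, linear units) with the group mean (line); the OVA day 28 arrays lie above all others. Right, the OVA day 28 minus day 14 difference of each of the 8 spike-ins, before scaling (grey squares, all above 0) and after percentile scaling (blue circles, on both sides of 0).

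Of 72515 features tested, 24708 (34.1%) passed an adjusted p of 0.05 between the OVA days (limma, Benjamini-Hochberg over all tested features): 10855 (15.0% of those tested) were higher on day 28 and 13853 (19.1%) lower. The balance of directions depended on the scale. Against the spike-ins, 13955 were higher and 5570 lower, and with the percentile taken over bright probes, those well above background on all 12 arrays, 12625 were higher and 10758 lower. Called in the same direction on both scales were 16425 features (22.7%), of which 10855 were higher (15.0%) and 5570 lower (7.68%). Spike-in scaling raises every day difference, and it kept all 10855 increases. Passing on both scales is therefore a check mainly of decreases, and says little on increases. With another background correction (normexp), 9283 were higher and 38315 lower. Normexp here added 50 signal units to every spot before percentile scaling. That weighs most on dim probes, and differently on slides of unlike brightness. The median day difference with normexp was -0.23 for OVA and 0.0009 for saline. A lost call or turned sign of a dim probe under normexp is therefore not read as a result about its gene. The 4 arrays of day 28 did not overlap those of day 14 for 26636 features (36.7%). Beyond the range of the scaled spike-ins, -0.45 to 0.19, were 10854 of the increases and 6583 of the decreases. A decrease smaller than 0.45 is therefore no larger than an added RNA showed.

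Changes of 2-fold or more were mostly increases: 1803 features (2.49%) passed with at least that change, 1628 higher and 175 lower on day 28. Without the filter on background, 1821 were higher and 889 lower. The filter keeps a feature that is well above background in a single group, so it bears on this balance. Many of the increases came from dim probes. Of the 1628, 711 were well above background on all 8 OVA arrays and 317 on no day 14 array. With the tested features split by mean level into 5 classes of equal size, the share called lower went up from 9.32% in the dimmest class to 28.8% in the brightest, while the share called higher stayed between 13.2 and 16.6%. Called lower on both scales were 4.75% of the dimmest class and 12.5% of the brightest. Brighter probes also have smaller errors, and the part of level in these shares was not tested.

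**Figure D2:**
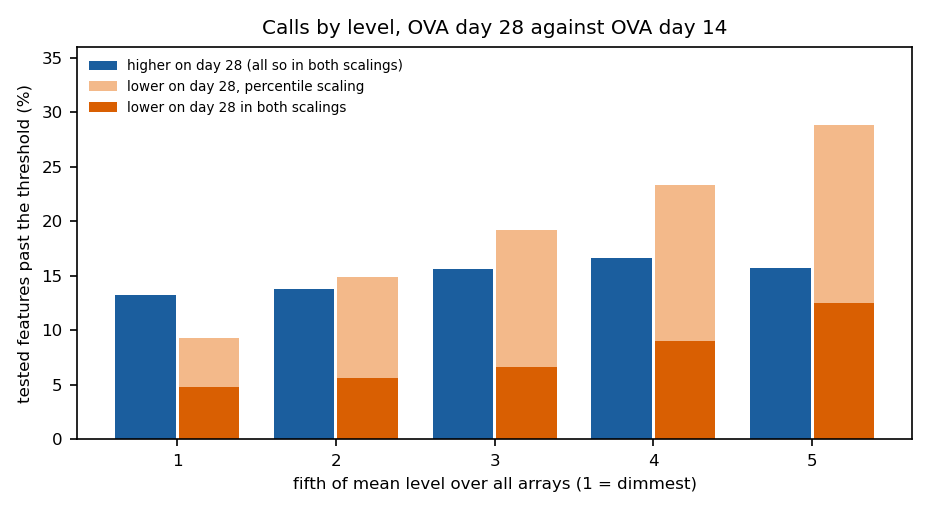
Percent of tested features past the threshold, in 5 classes of equal size by mean level over all 12 arrays (1 is the dimmest). Blue bars are features higher on day 28, orange bars lower; the dark part of the orange bars was lower with spike-in scaling too, and grows from 4.75% to 12.5%.

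The share called ran from 26.8% of Ensembl transcripts to 36.7% of catalogue probes, leaving aside the few probes the array itself names. Of 11990 tested RIKEN clones, 1702 were higher and 2475 lower on day 28. NONCODE transcripts, taken from a database of long non-coding RNAs, had 2975 higher and 3665 lower of 20457. RefSeq non-coding transcripts had 838 and 1197 of 7568, a share called of 26.9% at the lower median level of -2.34, against 36.7% for the catalogue probes at -0.25. Transcripts of ultraconserved elements, stretches of genome kept identical between distant mammals, had 27 higher and 30 lower of 205. The median day difference lay between -0.08 and -0.04 in these classes and was -0.06 over all features.

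Gene names came from RefSeq accessions, from the array's own labels, or from a RIKEN clone name that is also a synonym of exactly 1 gene. By the first 2 routes, 2530 tested features had a name. Of these, 278 were higher and 391 lower on day 28, smaller shares than the 15.0% and 19.1% of all features. Against the spike-ins the counts were 405 and 141, and with the percentile of bright probes 322 and 285. Most of the named features have numbered symbols. Among the 179 with an ordinary symbol, 23 were higher and 28 lower. Of the called ones, 43 had no overlap between the days, as had 36.7% of all features, called or not. The 12 largest changes of those 43 in each direction are described next.

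The antisense transcript Zeb2os rose. It is read from the strand opposite Zeb2, which encodes a zinc-finger repressor used by effector T cells, NK cells, plasmacytoid dendritic cells and macrophages. Zeb2os lay at -2.15, -2.59, -2.51 and -2.03 on the OVA day 14 arrays and -1.15, -1.34, -0.97 and -1.11 on the day 28 arrays. All 4 day 28 arrays were above all 4 of day 14, and the gene was 2.26-fold higher (log2 difference 1.18 ± 0.14 SE, n = 4 and 4, adjusted p = 1.68e-04). A RIKEN clone of Zeb2 itself lay at 0.19, 0.33, 0.48 and 0.48 on day 14 and 0.17, 0.12, 0.41 and 0.32 on day 28, a difference of -0.11 ± 0.13 SE that did not pass (adjusted p = 0.528). The labelled RNA is a bulk extract, in which more cells of a type and more RNA per cell cannot be told apart.

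Smim10l1, a small membrane protein gene read here through a non-coding transcript, lay at -0.64, -0.72, -0.71 and -0.23 on the OVA day 14 arrays and 0.46, 0.42, 0.54 and 0.44 on the day 28 arrays. The groups stood apart and the level was 2.05-fold higher (log2 difference 1.04 ± 0.11 SE, n = 4 and 4, adjusted p = 8.99e-05) on day 28. Gsdmcl2, a relative of the pore-forming gasdermin C genes, lay at -2.20, -1.84, -2.0 and -1.87 on day 14 and -1.14, -1.19, -1.09 and -1.32 on day 28. It too rose without overlap, 1.74-fold (log2 difference 0.80 ± 0.12 SE, n = 4 and 4, adjusted p = 6.61e-04). A RIKEN clone of the same gene did not pass (log2 difference -0.04, adjusted p = 0.820). Mtag2, a non-coding gene, lay at -1.0, -1.50, -1.24 and -1.19 on day 14 and -0.63, -0.77, -0.65 and -0.82 on day 28 and was 1.43-fold higher (adjusted p = 0.00354).

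Several of the largest increases rest on probes that were at background on day 14, for which only a lower bound of the fold is given. The bound sets the day 28 mean against the dimmest signal well above background on each day 14 array. The adjusted p-values of these probes rest on day 14 signals at background, and the filter can keep such a probe on its day 28 signals alone. They are printed for completeness and are not support for an increase. The pseudogene Ppp4r1l-ps lay at -4.95, -4.61, -5.18 and -6.01 on day 14 and -2.97, -2.81, -3.14 and -3.83 on day 28, well above background on all 4 day 28 arrays and on no day 14 array, and was at least 1.81-fold higher (adjusted p = 4.78e-04). By the same measure a non-coding transcript of Zfp410, a zinc-finger activator of the remodeller gene Chd4, rose at least 1.85-fold (adjusted p = 3.70e-04). Tvp23bos, on the strand opposite a Golgi vesicle protein gene, was at least 1.27-fold higher (adjusted p = 1.63e-05). Halr1, a lncRNA beside the Hoxa cluster, and the olfactory receptor pseudogene Olfr1372-ps1 had the same pattern of detection and passed (adjusted p = 0.0141 and 7.78e-04), but were too dim for a bound above 1. With normexp, Tvp23bos, Halr1 and Olfr1372-ps1 were lower on day 28, and Ppp4r1l-ps and Zfp410 no longer passed.

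The other 3 increases were on probes detected on 3 of the 4 day 14 arrays. The array's own ftx probe, for a lncRNA of the X-inactivation centre, lay at -3.29, -4.70, -3.64 and -3.48 on day 14 and -2.78, -2.72, -2.67 and -2.58 on day 28, lowest on replicate 2 of day 14 (2.13-fold, adjusted p = 0.00678). An accession probe of Ftx moved the other way, from 1.29 ± 0.11 to 0.94 ± 0.13 (mean ± SD, n = 4 each; log2 difference -0.35, adjusted p = 0.0304), although that fall did not pass with spike-in scaling (adjusted p = 0.205). The probes may read different transcripts, which was not tested. The lncRNA mrhl was 1.5-fold higher (adjusted p = 0.00579). Cep41, a centrosome gene read through a non-coding transcript, was 1.44-fold higher (adjusted p = 0.0168). With normexp the calls of ftx, mrhl and Cep41 ended and their differences were at or just below 0.

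Among the decreases, Bcor led the probes that were well above background on every OVA array. Bcor encodes a corepressor that binds BCL6, the regulator of germinal centre B cells, and the probe is of a non-coding transcript. It lay at 0.74, 1.08, 0.85 and 1.03 on the OVA day 14 arrays and 0.03, 0.18, 0.28 and 0.39 on the day 28 arrays. The groups did not overlap and the level was 1.63-fold lower (log2 difference -0.70 ± 0.12 SE, n = 4 and 4, adjusted p = 0.00172) on day 28, also with spike-in scaling (adjusted p = 0.00863). Rpph1, the RNA subunit of RNase P, which trims transfer RNA precursors, lay at 5.84, 5.94, 5.92 and 5.89 on day 14 and 5.56, 5.43, 5.53 and 5.37 on day 28. The spread within each day was narrow, and it was 1.34-fold lower (log2 difference -0.42 ± 0.08 SE, n = 4 and 4, adjusted p = 0.00231), with spike-in scaling at adjusted p = 0.0371. This fall lies within the range of the scaled spike-ins, -0.45 to 0.19.

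Celrr, an abundant lncRNA in these arrays, went down from 3.52 ± 0.07 to 3.05 ± 0.13 (mean ± SD, n = 4 each; 1.38-fold, adjusted p = 0.00218). A dim clone of Celrr did not pass (0.15 ± 0.17 SE, adjusted p = 0.524). Atad3aos lies opposite a mitochondrial ATPase gene and was 1.46-fold lower (adjusted p = 0.00355). The pseudogene Morf4l1-ps1 was 1.52-fold lower (adjusted p = 0.00611), with OVA day 14 replicate 3 at -0.62 and the other 3 day 14 arrays between -0.09 and -0.04. Rp2, a regulator of the small GTPase Arl3, fell 1.36-fold through a non-coding transcript (adjusted p = 0.00819). Cdrt4os1 fell 1.42-fold (adjusted p = 0.00299) and the dim probe of the lncRNA megamind, detected on 3 day 14 and 2 day 28 arrays, 1.73-fold (adjusted p = 0.00421). Prr33, Hipk1, Appbp2os and Tmem181c-ps, 1.32 to 1.44-fold lower, did not pass with spike-in scaling (adjusted p from 0.0524 to 0.136), and Appbp2os also lost its call when OVA day 14 replicate 2 or 4, or OVA day 28 replicate 1 or 2, was left out.

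**Figure D3:**
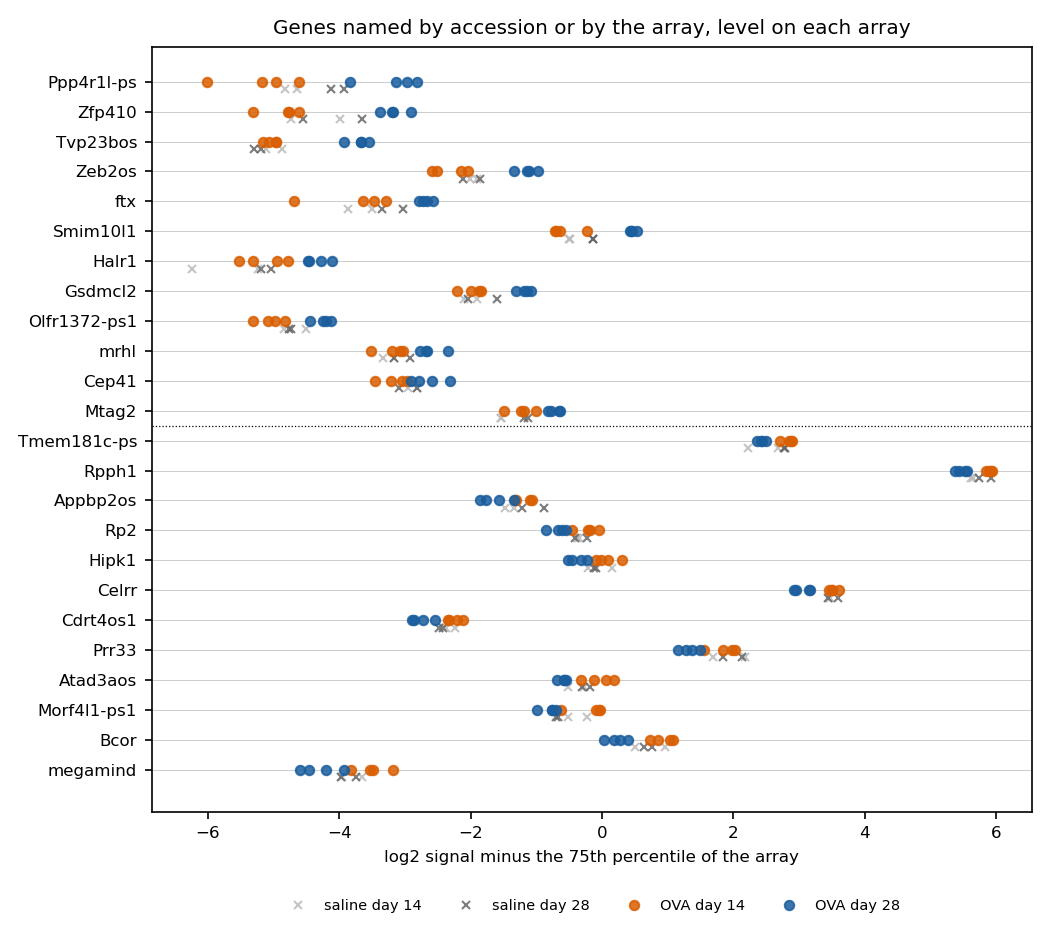
Level of the 24 genes on each array, as log2 signal minus the array's 75th percentile. Circles are OVA arrays of day 14 (orange) and day 28 (blue), crosses saline arrays; the 12 genes above the dotted line were higher on OVA day 28 and the 12 below it lower, and in no gene do the circles of the days overlap in range.

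The clone names added 874 tested features of 849 genes. On day 28, 118 were higher and 161 lower, near the shares of 15.0% and 19.1% over all features. The counts were 152 and 71 against the spike-ins, and 141 and 125 with the percentile of bright probes. Of the 874, 549 carry an ordinary symbol: 80 were higher and 113 lower, and 80 and 52 were so on both scales. The calls of 176 of them had no overlap between the days, as had 36.7% of all features, called or not. The 12 largest of the 176 in each direction all passed with spike-in scaling too. For the 12 increases this says little, since that scaling raises every day difference. Whether a clone's probe reads the coding mRNA, an intron or the opposite strand was not checked.

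Dleu2 is the lncRNA whose introns hold the microRNAs miR-15a and miR-16, which restrain the division of B cells. Their mature sequences, from RefSeq with the GRCm38.p6 table, are shown because they are the product Dleu2 is known for; capitals mark the seed, bases 2 to 8, which both share. The arrays did not measure the mature microRNAs.
mmu-miR-15a-5p: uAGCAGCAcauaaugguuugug
mmu-miR-16-5p: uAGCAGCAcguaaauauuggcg
The Dleu2 clone lay at -0.85, -0.92, -1.09 and -0.76 on the OVA day 14 arrays and 0.63, 0.94, 0.38 and 0.52 on the day 28 arrays. Every day 28 array was above every day 14 array, and the level was 2.88-fold higher (log2 difference 1.52 ± 0.14 SE, n = 4 and 4, adjusted p = 5.23e-05). A second Dleu2 probe, named by accession and dim, lay at -3.82, -5.27, -3.78 and -4.19 on day 14 and -3.74, -3.83, -3.80 and -3.33 on day 28 and did not pass (0.59 ± 0.36 SE, adjusted p = 0.228).

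C1galt1 makes the core 1 sugar chain on secreted and surface proteins, the base of most O-glycans of lymphocytes. Its clone lay at 0.63, 0.14, 0.62 and 0.62 on the OVA day 14 arrays and 1.74, 1.81, 1.64 and 1.82 on the day 28 arrays. It was bright on every array and 2.38-fold higher (log2 difference 1.25 ± 0.13 SE, n = 4 and 4, adjusted p = 1.03e-04) on day 28. Rnf139, a ubiquitin ligase of the endoplasmic reticulum, lay at 1.16, 0.48, 0.86 and 1.16 on day 14 and 2.23, 2.05, 1.97 and 2.32 on day 28 and was 2.34-fold higher (log2 difference 1.22 ± 0.17 SE, n = 4 and 4, adjusted p = 4.82e-04). Bbip1, a part of the BBSome that carries membrane proteins to cilia, lay at -1.24, -1.25, -1.13 and -1.05 on day 14 and -0.20, 0.13, -0.25 and -0.04 on day 28 and was 2.11-fold higher (log2 difference 1.08 ± 0.10 SE, n = 4 and 4, adjusted p = 4.15e-05). In all 3 the groups stood apart.

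The clone of Top2b, the DNA topoisomerase of non-dividing cells, lay at -3.15, -3.64, -2.88 and -2.98 on day 14 and -1.38, -1.33, -1.59 and -1.49 on day 28 and was 3.29-fold higher (log2 difference 1.72 ± 0.22 SE, n = 4 and 4, adjusted p = 2.76e-04). It was below the detection mark on 1 day 14 array. Dynlrb1, a light chain of the motor dynein, was 2.45-fold higher (adjusted p = 1.04e-04) and Fra10ac1 2.80-fold (adjusted p = 1.70e-04), both likewise detected on 3 of the 4 day 14 arrays. Etfbkmt, a mitochondrial methyltransferase gene, and Foxn2, a forkhead factor gene, were well above background on no day 14 array and were at least 1.16 and 1.38-fold higher (adjusted p = 0.00200 and 9.26e-04). With normexp both calls ended and both differences were just below 0. The p-values of Etfbkmt and Foxn2 also rest on day 14 signals at background and are not support for an increase. A Zfp626 clone was 2.62-fold higher (adjusted p = 0.0150) while a second clone of that gene did not pass (adjusted p = 0.802). Rnf227 was 2.10-fold higher by its clone (adjusted p = 0.0184), a call that ended with normexp and without OVA day 14 replicate 4.

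The clones that fell most included regulators of division, transport and timing. Cdk2, the kinase that drives entry into DNA synthesis, lay at -0.31, -0.22, 0.28 and -0.14 on the OVA day 14 arrays and -0.71, -0.92, -1.0 and -1.14 on the day 28 arrays. The ranges did not meet and the level was 1.80-fold lower (log2 difference -0.85 ± 0.13 SE, n = 4 and 4, adjusted p = 8.20e-04) on day 28. Stk38, a kinase of the Hippo family, lay at 1.26, 1.36, 1.24 and 1.37 on day 14 and 0.42, 0.50, 0.47 and 0.78 on day 28 and was 1.70-fold lower (log2 difference -0.76 ± 0.09 SE, n = 4 and 4, adjusted p = 2.05e-04). Cry2, a repressor of the circadian clock, lay at 0.06, 0.08, 0.16 and -0.03 on day 14 and -0.92, -0.74, -0.64 and -0.47 on day 28 and was 1.69-fold lower (log2 difference -0.76 ± 0.11 SE, n = 4 and 4, adjusted p = 5.44e-04). All 3 passed with spike-in scaling (adjusted p from 9.41e-04 to 0.00276). The labels do not give the hour at which spleens were taken.

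Spag9, a scaffold for JNK kinases and motor proteins, lay at 0.92, 1.08, 0.91 and 0.75 on day 14 and -0.08, 0.15, 0.12 and 0.17 on day 28 and was 1.77-fold lower (log2 difference -0.83 ± 0.09 SE, n = 4 and 4, adjusted p = 1.56e-04). Dctn2, a subunit of dynactin, was 1.79-fold lower (adjusted p = 9.10e-04). Atp2b1, a calcium pump of the plasma membrane, was the brightest of the group and went from 3.3 ± 0.12 to 2.55 ± 0.09 (mean ± SD, n = 4 each; 1.68-fold, adjusted p = 0.00102). Tbc1d8b, Rnf32, Cntn5 and Sox6os were 1.59 to 1.71-fold lower, with adjusted p from 3.48e-04 to 0.0151. The largest fall of these 12 belonged to Adamts19, a metalloprotease gene detected on 3 day 14 and 2 day 28 arrays, at -3.11, -3.81, -2.45 and -3.37 on day 14 and -4.01, -3.98, -6.88 and -6.93 on day 28. Its day 28 arrays fell into 2 near -3.98 and 2 near -6.93, and its call (adjusted p = 0.0236) ended without OVA day 14 replicate 3 or OVA day 28 replicate 3 or 4.

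**Figure D4:**
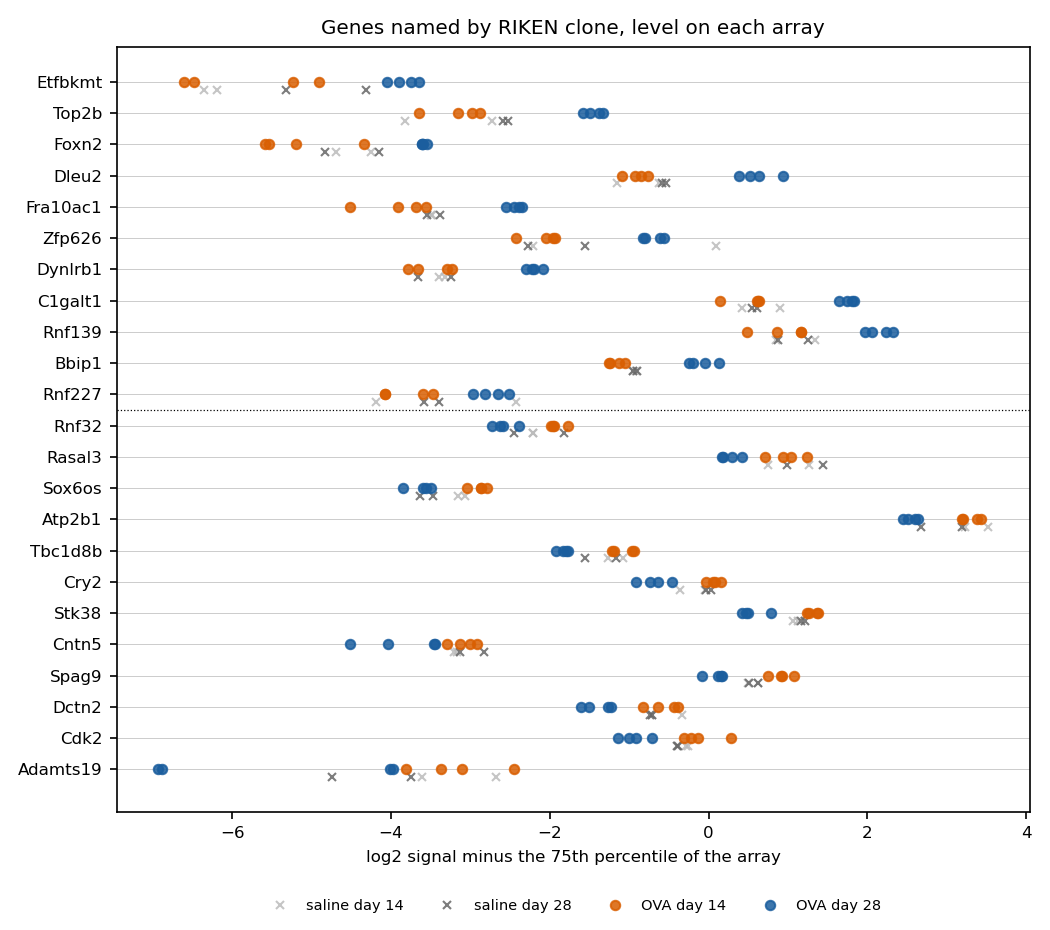
Level of the clone-named features with the largest changes on each array, as log2 signal minus the array's 75th percentile. Circles are OVA arrays of day 14 (orange) and day 28 (blue), crosses saline arrays; the features above the dotted line were higher on OVA day 28, from Etfbkmt to Rnf227, and the 12 below it lower.

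Grouped by what the genes are known to do, clones of lymphocyte signalling and immune genes had 6 higher and 12 lower of 38 tested features, a share called of 47.4% against 34.1% of all features; on both scales 6 were higher and 7 lower. The median difference was -0.11, against -0.06 over all features. The clone lists were written after the largest changes had been seen, so their counts are a description. The members named here were picked after their values were seen.

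Of the 12 lower features, 7 were lower on both scales, 6 of which are described here. Pik3cd, the catalytic subunit of the PI3-kinase of lymphocytes, lay at 2.15, 2.52, 2.27 and 2.23 on the OVA day 14 arrays and 1.68, 1.63, 1.64 and 1.60 on the day 28 arrays. The day 28 values were all lower, 1.57-fold (log2 difference -0.65 ± 0.09 SE, n = 4 and 4, adjusted p = 4.83e-04). Rasal3, a Ras inhibitor of lymphocytes, lay at 0.71, 1.23, 0.93 and 1.04 on day 14 and 0.17, 0.30, 0.18 and 0.42 on day 28 and was 1.64-fold lower (log2 difference -0.71 ± 0.15 SE, n = 4 and 4, adjusted p = 0.00446). Ubash3a, a phosphatase that dampens T cell receptor signalling, was lower as well (-0.51, adjusted p = 0.00622). So were Zfp36l1, an RNA decay factor of lymphocyte development (-0.52, adjusted p = 0.00212), Xiap, an inhibitor of caspases (-0.51, adjusted p = 0.00172), and Nfatc4, a calcium-regulated transcription factor (-0.54, adjusted p = 0.00895). Pvr, Tnfrsf9, Pde3b, Map3k2 and Zc3hav1 were lower by the percentile scale only. Tnfrsf9 lost its call without OVA day 14 replicate 2 or 4, or OVA day 28 replicate 1, 3 or 4. Pde3b lost its call without saline day 28 replicate 1 or 2, or OVA day 14 replicate 2, 3 or 4, or OVA day 28 replicate 2, 3 or 4. Map3k2 lost its call without OVA day 14 replicate 1, 2 or 3, or OVA day 28 replicate 1, 3 or 4. Zc3hav1 lost its call without OVA day 14 replicate 3, or OVA day 28 replicate 2 or 3.

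The clones of the same list that rose on both scales included 5 described here. Csnk1a1, casein kinase 1 alpha, lay at -1.24, -1.44, -1.23 and -1.03 on day 14 and -0.40, -0.40, -0.42 and -0.33 on day 28 and was 1.80-fold higher (log2 difference 0.85 ± 0.09 SE, n = 4 and 4, adjusted p = 1.20e-04). Mef2c, a transcription factor of B cells and myeloid cells, went from -1.91 ± 0.12 to -1.34 ± 0.09 (mean ± SD, n = 4 each; adjusted p = 0.00171). Lpxn, an adaptor of integrin signalling, was higher by 0.71 (adjusted p = 0.00421), Entpd1, the ATP-degrading surface enzyme CD39, by 0.37 (adjusted p = 0.0396) and Fyb, an adaptor of T cell adhesion, by 0.36 (adjusted p = 0.0260). With normexp, Lpxn and Entpd1 did not pass. Entpd1 lost its call without OVA day 14 replicate 1, 2, 3 or 4, or OVA day 28 replicate 2, 3 or 4. Fyb lost its call without OVA day 14 replicate 2, 3 or 4, or OVA day 28 replicate 1. The other 20 tested features of the list did not pass.

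Clones of vesicle traffic, Golgi and autophagy genes had 10 higher and 9 lower of 39, 10 and 4 on both scales. That is 48.7% called, against 34.1% of all features. Higher were C1galt1 (above), Pigm, an enzyme of GPI anchor synthesis (1.04, adjusted p = 1.54e-04), Cltc, the clathrin heavy chain (0.72, adjusted p = 8.49e-04), Atg12, a conjugation factor of autophagy (0.71, adjusted p = 0.00226), and Stam2 and Vps4b, parts of endosomal sorting (0.56 and 0.68, adjusted p = 0.00125 and 0.00303). A Vps36 clone rose as well, while a second clone of that gene did not pass. With normexp the calls of Atg12, Vps4b and Vps36 ended. Those lower on both scales included Tbc1d8b, Vmp1, an autophagy protein of the endoplasmic reticulum (-0.56, adjusted p = 0.00383), and Mbtps1, a Golgi protease (-0.51, adjusted p = 0.00605).

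Ubiquitin and proteasome clones had 2 higher and 9 lower of 33, 33.3% called against 34.1% of all features. Rnf139 and Rnf207 rose, the second from 3.44 ± 0.08 to 4.31 ± 0.31 (mean ± SD, n = 4 each; adjusted p = 9.79e-04). Those lower on both scales included Rnf32, Fbxw8, a substrate receptor of a cullin ligase (-0.65, adjusted p = 5.57e-04), Ttc3 (-0.64, adjusted p = 0.00161), Rnf220 (-0.61, adjusted p = 0.00106) and Xiap. Mitochondrial clones had 6 higher and 9 lower of 33 (45.5%), with Slc25a42, a coenzyme A carrier (-0.63, adjusted p = 0.00243), and Ivd, an enzyme of leucine breakdown (-0.57, adjusted p = 0.00249), lower. Acad9, an assembly factor of complex I, was higher (0.42, adjusted p = 0.00503), though not with normexp.

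Clones of cell cycle, centrosome and DNA repair genes had 3 higher and 6 lower of 28, 32.1% called against 34.1% of all features. Besides Cdk2, Cacul1, a cullin-related partner of CDK2, passed lower on both scales (-0.55, adjusted p = 0.0112), and Kif2c, a kinesin of mitosis, on the percentile scale (-0.63, adjusted p = 0.0275; 0.0603 with the spike-ins). Kif2c lost its call without OVA day 14 replicate 1 or 3, or OVA day 28 replicate 2, 3 or 4. Clasp2, which steadies microtubule ends, rose (0.52, adjusted p = 0.00182). Chromatin regulators had 3 higher and 5 lower of 33, a share called of 24.2%. Top2b and Kdm2a, a histone demethylase (0.86, adjusted p = 0.00624; -0.35 with normexp), were higher, and Mllt10, a partner of the methyltransferase DOT1L (-0.62, adjusted p = 5.94e-04), and Kat2b, a histone acetyltransferase (-0.54, adjusted p = 0.0170), lower. RNA processing and transcription clones had 4 higher and 9 lower of 40 (32.5%): Med14, a Mediator subunit, fell (-0.59, adjusted p = 0.00107), while Fxr1, an RNA-binding protein (1.06, adjusted p = 0.00476), and Twistnb, a subunit of RNA polymerase I (0.75, adjusted p = 6.31e-04), rose.

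**Figure D5:**
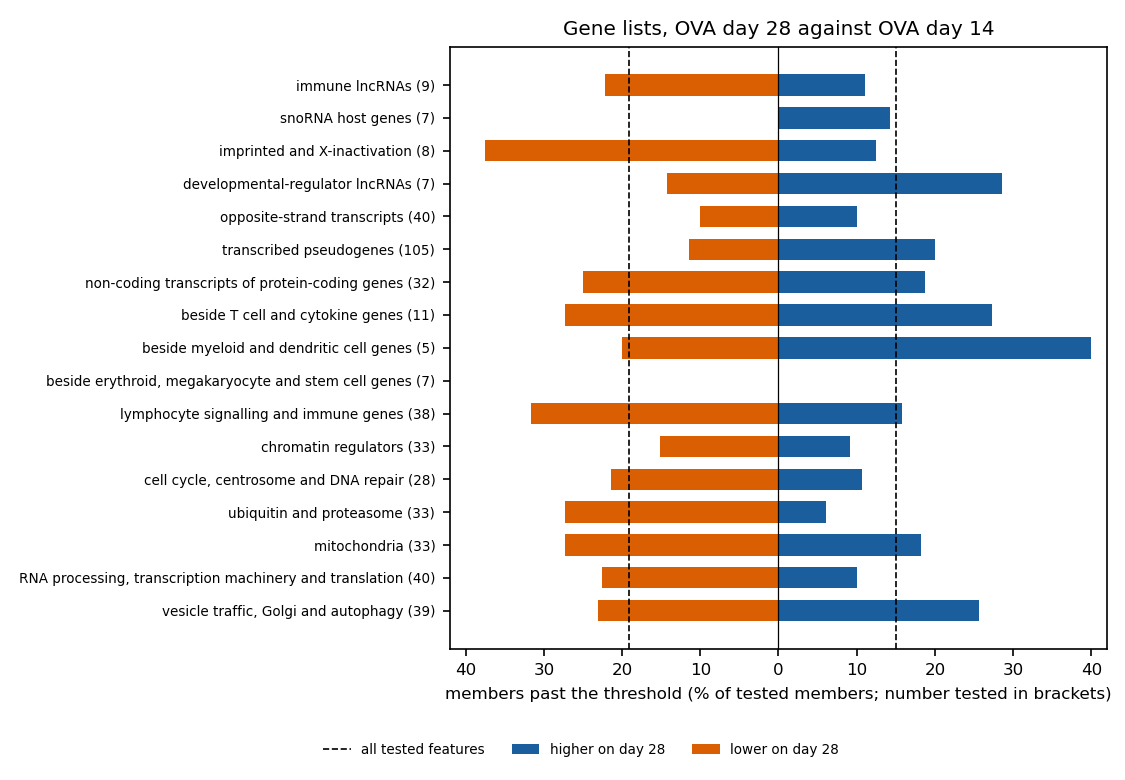
Percent of the tested members of each list past the threshold, for lists with at least 5 tested members (number in brackets). Blue bars to the right are members higher on OVA day 28, orange bars to the left lower; dashed lines mark the shares over all tested features, 15.0% and 19.1%.

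Of 9 tested lncRNAs known from immune cells, 3 passed, 33.3% against 34.1% of all features. Besides Zeb2os, AW112010, an abundant transcript of activated T cells and macrophages, lay at 3.82, 4.08, 3.69 and 3.72 on the OVA day 14 arrays and 3.41, 3.43, 3.33 and 3.28 on the day 28 arrays, and the level was lower on day 28 (-0.46 ± 0.14 SE, adjusted p = 0.0256). Lncpint, a p53-induced RNA, differed by -0.31 (adjusted p = 0.0304), with overlap. Neither passed with spike-in scaling (adjusted p = 0.134 and 0.234). AW112010 lost its call without OVA day 14 replicate 2, or OVA day 28 replicate 3 or 4. Lncpint lost its call without OVA day 14 replicate 2, 3 or 4, or OVA day 28 replicate 1 or 2. The rest did not pass: Morrbid, which controls the life span of myeloid cells (0.11 ± 0.15 SE), Ifngas1, beside the interferon gamma gene (0.17 ± 0.16 SE), Bach2os (-0.07 ± 0.16 SE), Mirt2 (0.65 ± 0.28 SE), Trp53cor1 (0.17 ± 0.10 SE) and the accession probe of Dleu2.

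Many predicted non-coding genes lie within 100 kb of a gene of immune function, and their values say nothing on that neighbour by themselves. Over all features 34.1% were called, and these lists are too small to be told from that share. Beside T cell and cytokine genes, 3 of 11 were higher and 3 lower (54.5% called). Zeb2os, counted above among the immune lncRNAs, is also 1 of these 3 higher ones. Gm39256, beside the transcription factor gene Maf, lay at -1.98, -2.22, -2.13 and -2.04 on day 14 and -1.60, -1.43, -1.30 and -1.36 on day 28 and was 1.59-fold higher (adjusted p = 0.00279). Gm40775, beside Il22, was higher by 0.32 (adjusted p = 0.00843), though not with normexp. Gm11802 beside Tox (-0.48), Gm30989 beside Stat6 (-0.42) and Gm33341 beside Bcl11b (-0.34) were lower (adjusted p = 0.0130, 0.0138 and 0.0463), none of them with spike-in scaling. The sign of Gm11802 turned when its probes were averaged. Gm33341 lost its call without saline day 28 replicate 1 or 2, or OVA day 14 replicate 2, 3 or 4, or OVA day 28 replicate 1, 2, 3 or 4.

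Beside myeloid and dendritic cell genes, 2 of 5 were higher and 1 lower, against 15.0% and 19.1% of all features. Gm39266, next to Irf8, a factor of dendritic cells and B cells, lay at -1.87, -1.27, -1.17 and -1.24 on day 14 and -0.66, -0.65, -0.54 and -0.28 on day 28 and was 1.81-fold higher (log2 difference 0.85 ± 0.16 SE, n = 4 and 4, adjusted p = 0.00241). Gm39015, next to Siglech, a receptor of plasmacytoid dendritic cells, was higher by 0.79 (adjusted p = 0.0135), a sign that turned with normexp. The lower one was Slc2a4rg-ps beside Zbtb46 (-0.38, adjusted p = 0.0287; 0.108 with the spike-ins). Slc2a4rg-ps lost its call without OVA day 14 replicate 3 or 4, or OVA day 28 replicate 1, 2 or 3.

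Beside B cell and germinal centre genes, 2 of 4 were lower, against 19.1% of all features. They were Gm31527 next to Bcl6 (-0.54 ± 0.13 SE, adjusted p = 0.00781) and Gm42266 next to Bach2 (-0.32 ± 0.11 SE, adjusted p = 0.0384), neither with spike-in scaling (adjusted p = 0.0548 and 0.250). Gm42266 lost its call without OVA day 14 replicate 1, 2 or 4, or OVA day 28 replicate 2, 3 or 4. Gm32650, near the chemokine gene Ccl5, lay at 0.61, 0.77, 0.81 and 0.59 on day 14 and 0.16, 0.06, 0.08 and 0.17 on day 28. It was lower without overlap, 1.49-fold (log2 difference -0.58 ± 0.08 SE, n = 4 and 4, adjusted p = 4.72e-04), and passed with spike-in scaling too (adjusted p = 0.00693). Gm41590, beside the cyclin D3 gene Ccnd3, was 1.67-fold lower (adjusted p = 0.0151; 0.0497 with the spike-ins). None of 7 transcripts beside erythroid, megakaryocyte and stem cell genes passed, with differences from -0.29 to 0.21.

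Transcribed pseudogenes had 21 higher and 12 lower of 105, and 21 and 4 on both scales. That is 31.4% called, against 34.1% of all features, and 3.81% lower on both scales, against 7.68%. Besides those above, Slfn10-ps, of the schlafen family of interferon-responsive genes, was higher (0.69, adjusted p = 0.0149; not with normexp), as was Zfp862-ps (0.50, adjusted p = 0.00863). A pseudogene probe can also read its parent gene, which was not checked. Opposite-strand transcripts had 4 higher and 4 lower of 40, a share called of 20.0%. Probes for non-coding products of genes that also make protein had 6 higher and 8 lower of 32 (43.8% called), with Khdrbs1, an RNA-binding splicing regulator, higher (0.50, adjusted p = 0.00358).

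The lists that follow are too small to be told from the 34.1% called over all features. Of 7 tested host genes of small nucleolar RNAs, Snhg8 passed, from 1.92 ± 0.10 to 2.35 ± 0.09 (mean ± SD, n = 4 each; adjusted p = 0.0131), and the other 6 differed by -0.29 to 0.01. Imprinted and X-linked lncRNAs had 1 higher (ftx) and 3 lower of 8 features, against 15.0% higher and 19.1% lower of all features. Ftx is counted on both sides, higher by its array-named probe and lower by its accession probe. Meg3, a maternally expressed RNA (-0.31, adjusted p = 0.0318), Nctc1, beside H19 (-0.32, adjusted p = 0.0173), and Ftx were lower on the percentile scale alone. Meg3 lost its call without OVA day 14 replicate 2, 3 or 4, or OVA day 28 replicate 2, 3 or 4. Nctc1 lost its call without OVA day 28 replicate 3. Ftx lost its call without OVA day 14 replicate 2, 3 or 4, or OVA day 28 replicate 2 or 4. Kcnq1ot1 (-0.11 ± 0.21 SE), Peg13 (0.13 ± 0.13 SE), Airn (0.05 ± 0.21 SE) and Rian (-0.07 ± 0.19 SE) did not pass at their accession probes. A brighter clone of Rian was lower (-0.42 ± 0.11 SE, adjusted p = 0.0135; 0.0403 with the spike-ins), and a clone of Airn did not pass (-0.22 ± 0.14 SE). Of nuclear and structural RNAs, Norad (0.10 ± 0.12 SE) and Firre (0.17 ± 0.13 SE) did not pass and Rpph1 fell. Of 7 developmental lncRNAs, Halr1 was higher (above), Emx2os was higher (0.31, adjusted p = 0.0172), Dmrta2os lower (-0.32, adjusted p = 0.0365; 0.244 with the spike-ins), and Hottip (-0.95 ± 0.40 SE), Hotair (-0.09 ± 0.17 SE), Sox1ot (-0.17 ± 0.23 SE) and Six3os1 (-0.04 ± 0.19 SE) did not pass. Emx2os lost its call without OVA day 28 replicate 3. Dmrta2os lost its call without OVA day 14 replicate 1, 2 or 4, or OVA day 28 replicate 1, 3 or 4. A microRNA host gene, Mir133a-1hg, was lower (-0.38, adjusted p = 0.0389; 0.160 with the spike-ins). Mir133a-1hg lost its call without OVA day 14 replicate 1 or 3, or OVA day 28 replicate 1, 3 or 4. Mir22hg (0.10 ± 0.09 SE) and Mir9-3hg (0.01 ± 0.10 SE) did not pass.

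How far a named value stands for its gene can be read from the 62 genes with more than 1 named feature. In 28 of them no feature passed, in 29 some did, in 4 all passed in the same direction, and in 1, Rnf227, the features passed in opposite directions. The 62 were matched by exact spelling, which leaves out Ftx. Its array-named probe, spelled ftx, was called higher and its accession probe lower. The bright accession probe of Rnf227 went from -0.65 ± 0.14 to -0.92 ± 0.06 (adjusted p = 0.0345; 0.268 with the spike-ins) and its dim clone from -3.80 ± 0.32 to -2.74 ± 0.20 (mean ± SD, n = 4 each). The accession probe lost its call without OVA day 14 replicate 2, 3 or 4, or OVA day 28 replicate 1, 2 or 3. Both clones of Tmem245 rose, by 0.97 and 0.73. The lncRNA A730094K22Rik rose by 1.05 at its accession probe and by 0.32 at its clone. Smap1 fell at its clone (-0.58, adjusted p = 2.39e-04) and did not pass at its accession probe (0.12, adjusted p = 0.492).

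Features without a gene name were picked by the highest and lowest t statistics among those called on both scales. NONCODE transcript NONMMUT029622 lay at -1.14, -1.05, -0.86 and -0.80 on day 14 and 1.5, 1.48, 1.65 and 1.63 on day 28, 5.76-fold higher (log2 difference 2.53 ± 0.11 SE, adjusted p = 2.22e-06). Catalogue probe A_55_P2047768 was 4.47-fold higher (adjusted p = 1.76e-06). NONMMUT055838 lay at -2.69, -3.02, -2.75 and -3.05 on day 14 and -4.52, -4.72, -4.70 and -5.20 on day 28, 3.76-fold lower (adjusted p = 2.43e-05), and was detected on 1 of the 4 day 28 arrays. RIKEN clone 9830125P17 was 2.16-fold lower (adjusted p = 1.63e-05).

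Saline mice show what 14 more days do without OVA, though with 2 arrays a day and on 1 slide. Between their days, 1 of 72515 features passed (0.00138%), and 7461 had an unadjusted p under 0.05. With 2 arrays a day few changes can pass, so the single call does not show that saline spleens stayed the same. Without saline day 14 replicate 2, 1562 passed. The OVA and saline day differences were set against each other as an interaction term in limma. The OVA days lie on different slides and the saline days on 1, so OVA and slide cannot be told apart in this term. In it 2138 features passed (2.95%): 1152 moved further up and 986 further down in the OVA arrays. Against the spike-ins these were 2856 and 77, and with the percentile of bright probes 1851 and 440. Among the saline arrays, day and array position cannot be told apart, with day 14 at positions 1 and 2 and day 28 at 3 and 4. The interaction count ran from 282 without saline day 28 replicate 2 to 5995 without saline day 14 replicate 2. With array position as a block, a fit that this layout limits, the count was 0. The interaction count was also more than 1.5 times lower without saline day 14 replicate 1 (595), saline day 28 replicate 1 (555), OVA day 14 replicate 2 (1213), OVA day 14 replicate 3 (732), OVA day 14 replicate 4 (1068), OVA day 28 replicate 1 (610), OVA day 28 replicate 2 (532) or OVA day 28 replicate 3 (496).

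For Zeb2os the saline arrays lay at -2.01 and -1.91 on saline day 14 and -2.11 and -1.85 on saline day 28, all below the OVA day 28 arrays, and the day differences differed (adjusted p = 0.0288), as they did under 14 of 24 alternatives. For C1galt1 they lay at 0.89 and 0.42 on saline day 14 and 0.61 and 0.54 on saline day 28 (adjusted p = 0.0200) and for Bbip1 at -0.91 and -0.95 on saline day 14 and -0.90 and -0.95 on saline day 28 (adjusted p = 0.0145). For Stk38 they lay at 1.06 and 1.13 on saline day 14 and 1.16 and 1.21 on saline day 28, all above the OVA day 28 arrays (adjusted p = 0.0247). Dleu2, Rnf139, Dynlrb1, Fra10ac1, Tvp23bos, Spag9, Cry2, Pik3cd, Rpph1, Tmem181c-ps and Gm32650 were among the others that passed this test, with adjusted p from 0.00408 to 0.0482. Of them, Tvp23bos was well above background on no OVA day 14 array, and its OVA day difference changed sign with normexp. All these p-values are of the percentile scale. Over all features, 986 moved further down on that scale and 77 against the spike-ins, so a fall named here need not pass against the spike-ins. The genes were picked with their OVA day differences known, and those differences are a part of this test. For Bcor (adjusted p = 0.104), Cdk2 (0.0950), Smim10l1 (0.0687) and Gm39266 (0.328) the difference between OVA and saline did not pass.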

How the data were processed

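Total RNA of 12 spleens was read on 1-colour Agilent arrays. The intensity is the background-subtracted processed signal deposited per array; per the file headers it came from Feature Extraction 11.5.1.1, while the submitters' processing notes name version 9.1. The log2 values of the authors' deposited table differ from the log2 values used here by 1 constant per array, whose rule no source used here gives. Control and outlier-flagged spots were left out, log2 signals were scaled to each array's 75th percentile and spots of a probe were averaged. A feature was tested if some group had it well above background on all its arrays (72515 features). Limma 3.58.1 in R 4.3.3 fitted the 4 groups with 8 residual degrees of freedom; adjusted p-values are Benjamini-Hochberg. Names came from the GRCm38.p6 RefSeq table (4654 of 13009 RefSeq probes matched; 1200 of 15594 RIKEN probes by clone), with the probe of highest mean per gene for accessions. Named are the 12 highest and 12 lowest differences among called features with an ordinary symbol and no overlap, for accession or array names and for clones, members of fixed lists, and the 2 highest and 2 lowest unnamed features by t statistic; other names were picked after their values were seen. A few results that the rule would name are not reported here. Clone naming was added after the files were seen. Members and lists were chosen with earlier results of these data known. Alternatives covered scaling, background correction, filters, blocks and leaving out each array. Tested on simulated data for this comparison, with 72515 features, the fit recovered 43.3% of 67 features changed 1.5-fold, 80.6% of 67 changed 2-fold and 93.9% of 66 changed 4-fold, and called 8 unchanged ones. The simulation had independent noise, no slide effect and far fewer changed features than were called here. It therefore cannot show how many of the real calls come from the slides. The number of arrays limits the precision. Same-numbered OVA samples did not deviate together (correlations -0.05 to 0.08), so numbers were not used as pairs.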

Additional observations from a re-analysis of the deposited data

Results flagged for a closer look

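Among 112 groups of 4 OVA arrays examined, 7 had a value far from the other 3; chance alone gives about 1 in 20. OVA day 14 replicate 2 had the smallest share of spots well above background, 57.5%, and the highest median signal of negative-control spots, 6.96 units. It was also the low array for the C1galt1 clone, at 0.14. OVA day 14 replicate 4 was apart for Smim10l1, at -0.23, replicate 3 for Morf4l1-ps1, at -0.62, and replicate 1 for the Rnf32 clone, at -1.77. OVA day 28 replicate 3 was apart for the Foxn2 clone, at -3.54.

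Among the genes with the 12 largest changes in each direction by either naming route and the 4 features without a gene name, 17 had an OVA day difference that differed from the saline one by the interaction test in limma. Over all features 2.95% did. The features were picked for extreme OVA day differences, which are a part of the interaction, so the picking itself raises their share. The interaction was taken on the percentile scale. OVA and slide cannot be told apart in that test. Tvp23bos was well above background on no OVA day 14 array, and its OVA day difference turned to -0.21 with normexp. Its excess therefore rests on day 14 signals at background. The excess of the OVA over the saline difference, on the log2 scale, was 1.60 for Tvp23bos (adjusted p = 0.00408), 1.2 for Zeb2os (0.0288), 1.2 for the Dleu2 clone (0.0334), 1.46 for Fra10ac1 (0.0320), 1.38 for Dynlrb1 (0.0200), 1.33 for C1galt1 (0.0200), 1.26 for Rnf139 (0.0482) and 1.08 for Bbip1 (0.0145). It was -0.62 for Rpph1 (adjusted p = 0.0396), -0.73 for Tmem181c-ps (0.0475), -0.83 for Spag9 (0.0287), -0.86 for Stk38 (0.0247) and -0.96 for Cry2 (0.0292). Of the features without a gene name, NONMMUT029622 had 2.27, catalogue probe A_55_P2047768 had 1.38, RIKEN clone 9830125P17 had -0.62 and NONMMUT055838 had -1.59. None of the 17 passed with array position as a block. Saline day 14 arrays lay at positions 1 and 2 and saline day 28 arrays at 3 and 4. That block cannot separate day from position among the saline arrays, so no conclusion is drawn from it.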

How the results depend on the processing

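Of the 110 features named by rule, 72 passed, and 41 of those kept their call under every alternative that tested them. Over those 72, 1645 of 1752 alternatives kept the call. The filters for probes well above background on all 8 OVA arrays or on all 12 arrays tested only 47 of the 72, which all kept their call. A feature outside the 47 can thus be among the 41 without having met those filters. Normexp gave 47598 calls over all features, 1831 over named genes, 575 over named clones, 506 of at least 2-fold, 22268 for the interaction and 3 for saline. The authors' deposited values, on 38821 catalogue probes, gave 12563 calls, 844 of at least 2-fold and 2 for saline. Calls of at least 2-fold numbered 2710 without a filter, 808 with probes well above background on all 8 OVA arrays and 805 on all 12 arrays. The interaction count was 329 without a filter, 3953 and 3951 with those filters, 391 with the replicate block, 0 with the array position block, 4278 with trend and robust settings and 495 with array weights. Besides that count the replicate block moved no count by over 1.5 times (23186 over all features). For saline, 2 passed with spike-in scaling, quantile normalization, either filter, or trend and robust settings, and 0 with only the groups compared, the array position block or array weights. Leaving out each array gave 19050 to 26621 calls, 1552 to 1999 of at least 2-fold, 12150 to 18113 on both scales, 481 to 724 named genes, 227 to 302 clones, 282 to 5995 for the interaction and 1 to 1562 for saline, the last without saline day 14 replicate 2; leaving out each OVA array gave a mean spike-in difference of -0.16 to -0.08. Unscaled, that mean was 0.75. With normexp the difference was -0.21 for Tvp23bos, -5.4e-05 for ftx, -0.38 for Halr1, -0.38 for Olfr1372-ps1, -0.077 for mrhl, -0.056 for Cep41, -0.11 for Etfbkmt, -0.058 for Foxn2 and -0.063 for Gm39015; averaging probes gave 0.11 for Gm11802. The cause was not tested.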
